A study of Mus musculus with 12 samples.

Results

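The genes described here are a list of 46 that carry out or follow the cellular response to low oxygen: the hypoxia-inducible factor (HIF) subunits and their regulators, known HIF target genes, the glucose and lactate transporters, and the enzymes of glycolysis. They were taken by gene symbol from the table of expression values, and 44 of the 46 were measured, of 24477 genes on the array. Gpi1 and Eno1 were not matched to a probe set by symbol and were not analysed here, and Ero1l was found under its present symbol Ero1a. The study followed oral tumorigenesis in male CBA mice. The 3 normal samples came from tongues of untreated control mice aged 24, 12 and 20 weeks. The other 9 mice had drunk water with the carcinogen 4-nitroquinoline 1-oxide (4-NQO) at 100 ug/mL for 8 weeks, and gave 3 samples of hyperplasia (20, 16 and 20 weeks old), 3 of dysplasia (16, 24 and 16 weeks) and 3 of tumor (20, 16 and 24 weeks). These ages are as labelled for the samples, while the paper gives the same numbers as weeks of its experiment. Each sample was epithelium cut from frozen tongue sections by laser microdissection, from a different mouse, and was hybridized to its own Mouse Gene ST 2.0 array after whole-transcriptome amplification. Because every lesion sample came from a treated mouse and every normal sample from an untreated one, stage and carcinogen exposure cannot be told apart in comparisons with normal mucosa.

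Cells read their oxygen supply through the HIF alpha subunits Hif1a and Epas1. With oxygen present, prolyl hydroxylases mark these proteins and the Vhl ubiquitin ligase has them destroyed; without it, they persist and switch on genes that bring in glucose, speed glycolysis, export lactate and acid, remodel collagen and call in blood vessels. Oncogenic signalling can raise many of the same genes in well-oxygenated cells, and in stratified epithelium the glucose transporter Slc2a1 is a feature of the basal layer. HIF activity is controlled mainly through protein stability, which an array does not measure.

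HIF binds DNA at the core letters ACGTG or GCGTG, so the promoters of 4 members are shown to set this sequence beside the expression values: Slc2a1 and Adm, which were higher in lesions, and the carbonic anhydrases Car12 and Car9, whose values are set side by side further on. The stretches are the 250 bases before the RefSeq transcription start (GRCm38.p6), 5′ to 3′ on the gene's strand, with each core, read on either strand, in capitals.
Slc2a1, chr4:119108495-119108744, plus strand: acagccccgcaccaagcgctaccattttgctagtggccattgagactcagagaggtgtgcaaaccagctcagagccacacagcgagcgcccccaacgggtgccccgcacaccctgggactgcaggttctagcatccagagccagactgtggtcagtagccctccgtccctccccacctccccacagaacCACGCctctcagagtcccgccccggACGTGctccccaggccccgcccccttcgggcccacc
Adm, chr7:110627407-110627656, plus strand: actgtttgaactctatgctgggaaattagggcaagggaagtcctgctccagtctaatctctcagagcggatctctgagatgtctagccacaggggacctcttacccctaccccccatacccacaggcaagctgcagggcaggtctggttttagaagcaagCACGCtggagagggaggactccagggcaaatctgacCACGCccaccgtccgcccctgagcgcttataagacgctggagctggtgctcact
Car12, chr9:66713436-66713685, plus strand: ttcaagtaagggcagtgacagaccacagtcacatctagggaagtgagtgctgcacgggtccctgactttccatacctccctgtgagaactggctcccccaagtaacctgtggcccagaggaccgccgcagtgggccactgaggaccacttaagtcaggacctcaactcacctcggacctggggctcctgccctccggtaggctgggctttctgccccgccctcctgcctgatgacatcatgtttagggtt
Car9, chr4:43506776-43507025, plus strand: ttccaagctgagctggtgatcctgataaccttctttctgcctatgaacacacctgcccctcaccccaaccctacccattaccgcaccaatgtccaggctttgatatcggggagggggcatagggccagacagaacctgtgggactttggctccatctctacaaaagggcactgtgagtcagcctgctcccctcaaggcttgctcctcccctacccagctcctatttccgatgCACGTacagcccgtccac

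Slc2a1 had 2 cores, which began 61 and 36 bases before the start, and Adm had 2, at 90 and 54 bases. Car9 had 1 core, 18 bases before the start, and Car12 had none in this window. Promoters were found for 39 of the 44 measured members, with 55 start sites in all. In 41 of the 55 (74.5%) at least 1 core lay in the 250 bases before the start, compared with 38.6% of all 32851 promoters. The letters ACGTG were present in 49.1% of the member promoters and 16.6% of all promoters, and GCGTG in 49.1% and 28.2%. Where a core overlapped its own reverse strand copy it was counted once. The member promoters were richer in G and C (median 60.4%, against 52.4%), and many of the genes were listed because they are HIF targets, so these shares describe the list. A match is a stretch of letters and was not measured as a binding site.

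The samples carried the markers of tongue epithelium. The mean log2 level of 7 basal keratinocyte markers lay between 9.92 and 11.16 in the 12 samples, and that of 8 suprabasal markers between 11.89 and 12.54. RNA of other cell types was present too: the mean of 24 skeletal muscle markers ranged from 5.68 to 8.77, and was highest in 2 normal and 2 hyperplasia samples (7.81 to 8.77). Leukocyte markers were highest in dysplasia (6.79 to 7.58, against 5.84 to 5.93 in normal mucosa). Of 3 red blood cell markers, the globin gene Hbb-bs fell in tumors (difference -3.58, limma adjusted p = 0.0176), while Alas2 and Slc4a1 overlapped between tumor and normal mucosa. All 3 tumor samples had a higher RNA integrity number (RIN) than all 3 normal samples, while hyperplasia and dysplasia overlapped with both. In such bulk samples, fewer cells of a type and less RNA per cell cannot be told apart.

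Across the list, the difference between tumor and normal mucosa ranged from -1.75 to 2.08. All values are log2 expression, so that a difference of 1 is a doubling. Of the 44 members, 23 lay within 0.5 of no difference, a smaller share than the 18896 of all 24477 genes that did so. Slc2a1, the main glucose transporter of epithelium, and Plod2, which hydroxylates collagen lysines, were the 2 members that passed the test (limma, Benjamini-Hochberg adjusted p under 0.05 over all genes). Both rose, and no member fell. For comparison, 1.97% of all genes passed in this contrast, 0.744% higher and 1.23% lower. By the size rule that the study used, an absolute log2 difference over 1, 6 members were higher (Slc2a1, Plod2, Adm, Pgam1, Car12 and Hif1a) and 3 were lower (Pgam2, Eno3 and Pfkm), against 2.4% of all genes higher and 3.09% lower. Of the 44, 26 had a difference above 0 (59.1%, against 44.3% of all genes), and the median difference was 0.23, against -0.05 for all genes. This median depended on single mice, at 0.04 without tumor mouse 1, 0.15 without normal mouse 1 and 0.35 without normal mouse 2. The tumor and normal samples did not overlap for 13 members that were higher in tumors and 5 that were lower, where 10.3% and 13% of all genes did the same.

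**Figure D1:**
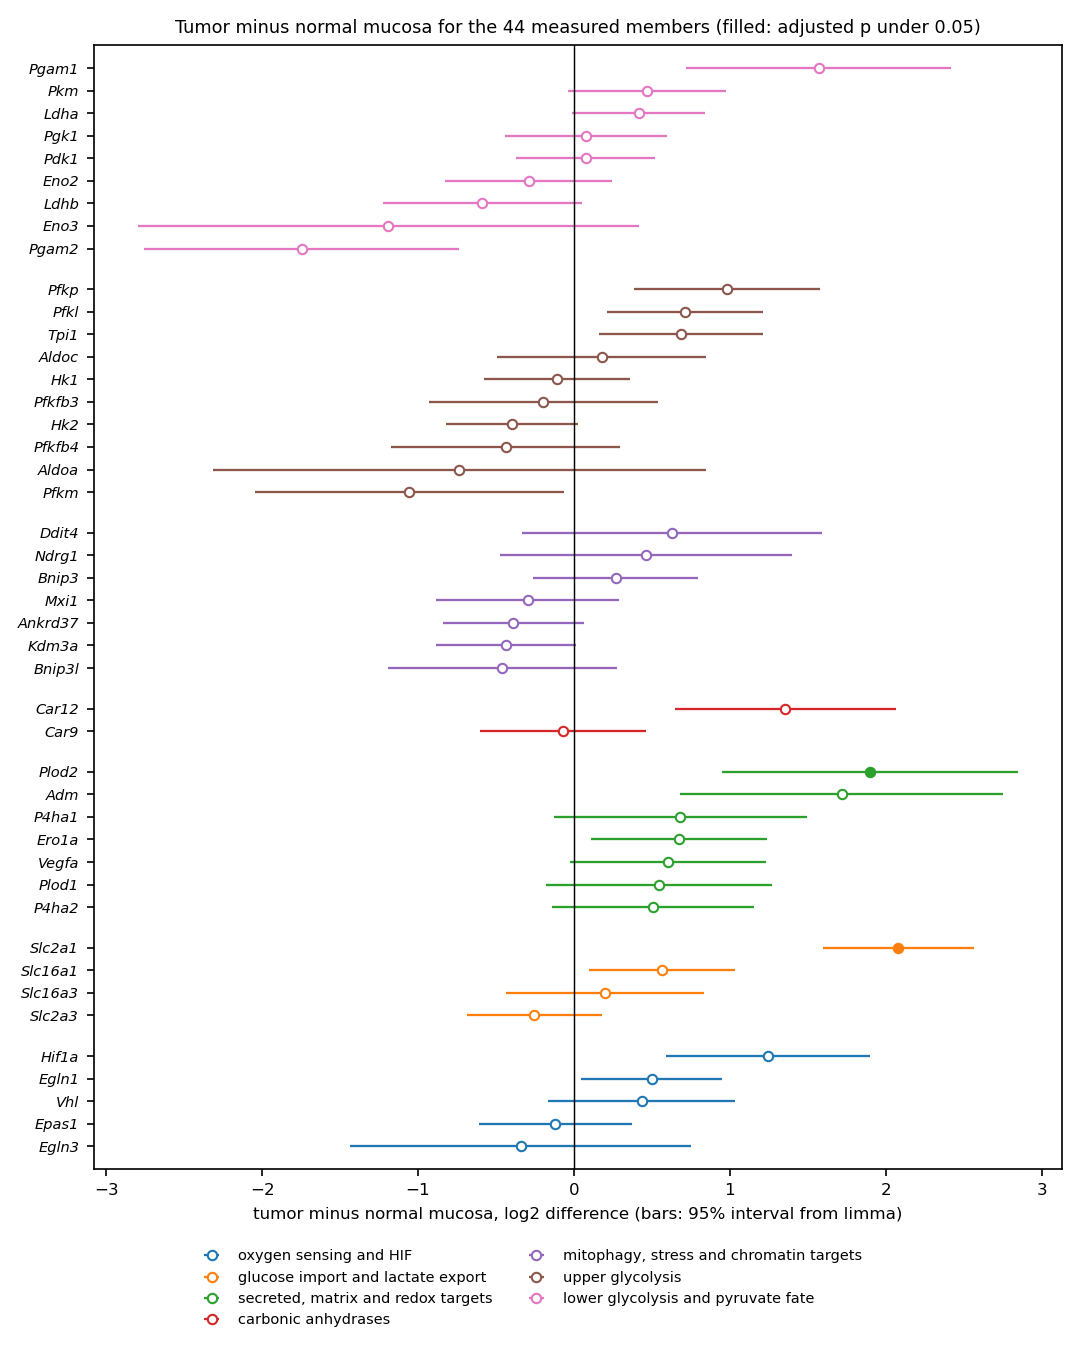
Tumor minus normal mucosa for each of the 44 measured members, as a log2 difference on the horizontal axis with its 95% interval from limma (3 mice a group), grouped and coloured by role; filled points passed the test. Slc2a1 and Plod2 are the 2 filled points, the 7 secreted, matrix and redox genes all lie above 0, and the glycolytic enzymes spread from -1.75 for Pgam2 to 1.57 for Pgam1.

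Among the oxygen sensors, the group mean of Hif1a RNA, which encodes the oxygen-regulated HIF subunit, was higher with each stage. Its values were 9.92, 9.29 and 9.77 in the 3 normal samples (in the order of mice 1 to 3, as throughout), 9.75, 10.16 and 10.74 in hyperplasia, 10.48, 10.55 and 10.71 in dysplasia, and 11.08, 10.32 and 11.32 in tumors. All dysplasia and tumor samples lay above all normal samples, while hyperplasia overlapped them. Tumor mouse 2 lay below all dysplasia samples, and no single step from one stage to the next passed limma's test. The tumor difference of 1.25 (SE 0.30), a 2.37-fold higher level, missed the threshold (limma adjusted p = 0.056, 95% interval 0.59 to 1.90). Epas1, which encodes the second alpha subunit, differed by -0.12 (SE 0.23, interval -0.61 to 0.37).

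The genes that restrain HIF showed smaller differences. Egln1, the main prolyl hydroxylase, measured 7.78, 8.24 and 8.26 in normal mucosa, 8.10, 8.34 and 8.23 in hyperplasia, 8.39, 8.19 and 8.39 in dysplasia and 8.80, 8.2 and 8.78 in tumors. The groups overlapped throughout, and the tumor difference was 0.50 (SE 0.21, limma adjusted p = 0.253). Egln3, a hydroxylase that is itself a HIF target, measured 7.95, 8.4 and 7.32 in normal mucosa, 7.63, 7.15 and 8.27 in hyperplasia, 9.43, 7.54 and 7.57 in dysplasia and 8.08, 6.92 and 7.65 in tumors. Only dysplasia mouse 1 stood out, and the tumor difference was -0.34 (SE 0.50, adjusted p = 0.781). Vhl, the recognition subunit of the ligase, measured 5.56, 6.81 and 6.68 in normal mucosa, 6.66, 6.93 and 6.81 in hyperplasia, 6.94, 6.92 and 7.16 in dysplasia and 6.89, 6.76 and 6.71 in tumors. Normal mouse 1 was more than 1 log2 unit below the rest, and the tumor difference of 0.43 (SE 0.28, adjusted p = 0.456) became -0.02 without the 4 samples with a RIN under 6.

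Glucose import held the member with the smallest adjusted p of the list. Slc2a1 measured 9.93, 9.69 and 10.05 in normal mucosa, 11.16, 10.82 and 11.51 in hyperplasia, 11.20, 11.42 and 11.38 in dysplasia and 12.33, 11.71 and 11.87 in tumors. Every lesion sample lay above every normal sample and every tumor above every other sample, while hyperplasia and dysplasia overlapped. In tumors the level was 4.23-fold that of normal mucosa (difference 2.08, SE 0.22, 95% interval 1.59 to 2.57, limma adjusted p = 0.0018). It was 2.72-fold in dysplasia (1.44, SE 0.22, adjusted p = 0.0141), where 0.764% of all genes passed. In hyperplasia it was 2.41-fold (1.27, SE 0.22) and missed the threshold, with an adjusted p of 0.072 from limma. The mean of the 3 lesion groups was 1.60 above normal mucosa (SE 0.18, adjusted p = 0.00194). The later steps were smaller: tumor exceeded dysplasia by 0.64 (SE 0.22, unadjusted p = 0.0144, limma adjusted p = 0.771) and hyperplasia by 0.81 (SE 0.22, unadjusted p = 0.0034, limma adjusted p = 0.637).

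The tumor difference of Slc2a1 kept an adjusted p under 0.05 in each of 21 alternative limma settings (differences 1.90 to 2.28). With RIN as a covariate it was 2.02 and close to the threshold (limma adjusted p = 0.0459). With the muscle marker mean it was 2.12 (limma adjusted p = 0.0153). By the two-sided equal-variance t-test that the methods name, Slc2a1 did not pass after Benjamini-Hochberg adjustment (adjusted p = 0.143 in tumors and 0.211 in dysplasia). Over all genes that test called 0 higher and 1 lower in tumors, and 0 in either direction in dysplasia. The dysplasia difference was less firm: its adjusted p was 0.0644 with the muscle marker mean as a covariate 0.0867 without the 4 samples with a RIN under 6, and 0.063, 0.0628, 0.07 and 0.0576 without normal mouse 1, normal mouse 2, dysplasia mouse 2 and dysplasia mouse 3. Some samples were prepared on the same day, which allowed 2 comparisons within a day. Tumor 1 exceeded normal 2 by 2.64 for Slc2a1, and the mean of tumors 2 and 3 exceeded dysplasia 1 by 0.59. The basal keratinocyte markers Cdh3 and Itga6 also rose in tumors (1.80 and 1.68, limma adjusted p = 0.0317 and 0.0239), and all 7 basal markers had a difference above 0. The basal list mean was 9.92 to 10.30 in normal mucosa and 10.31 to 11.16 in tumors. Of the 8 suprabasal markers 4 had a difference above 0. Dsg3 and Krt6b rose (1.29 and 1.13, limma adjusted p = 0.0388 and 0.024), and Krt4 fell (-2.97, limma adjusted p = 0.0286). The part of either list in the Slc2a1 result was not tested.

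**Figure D2:**
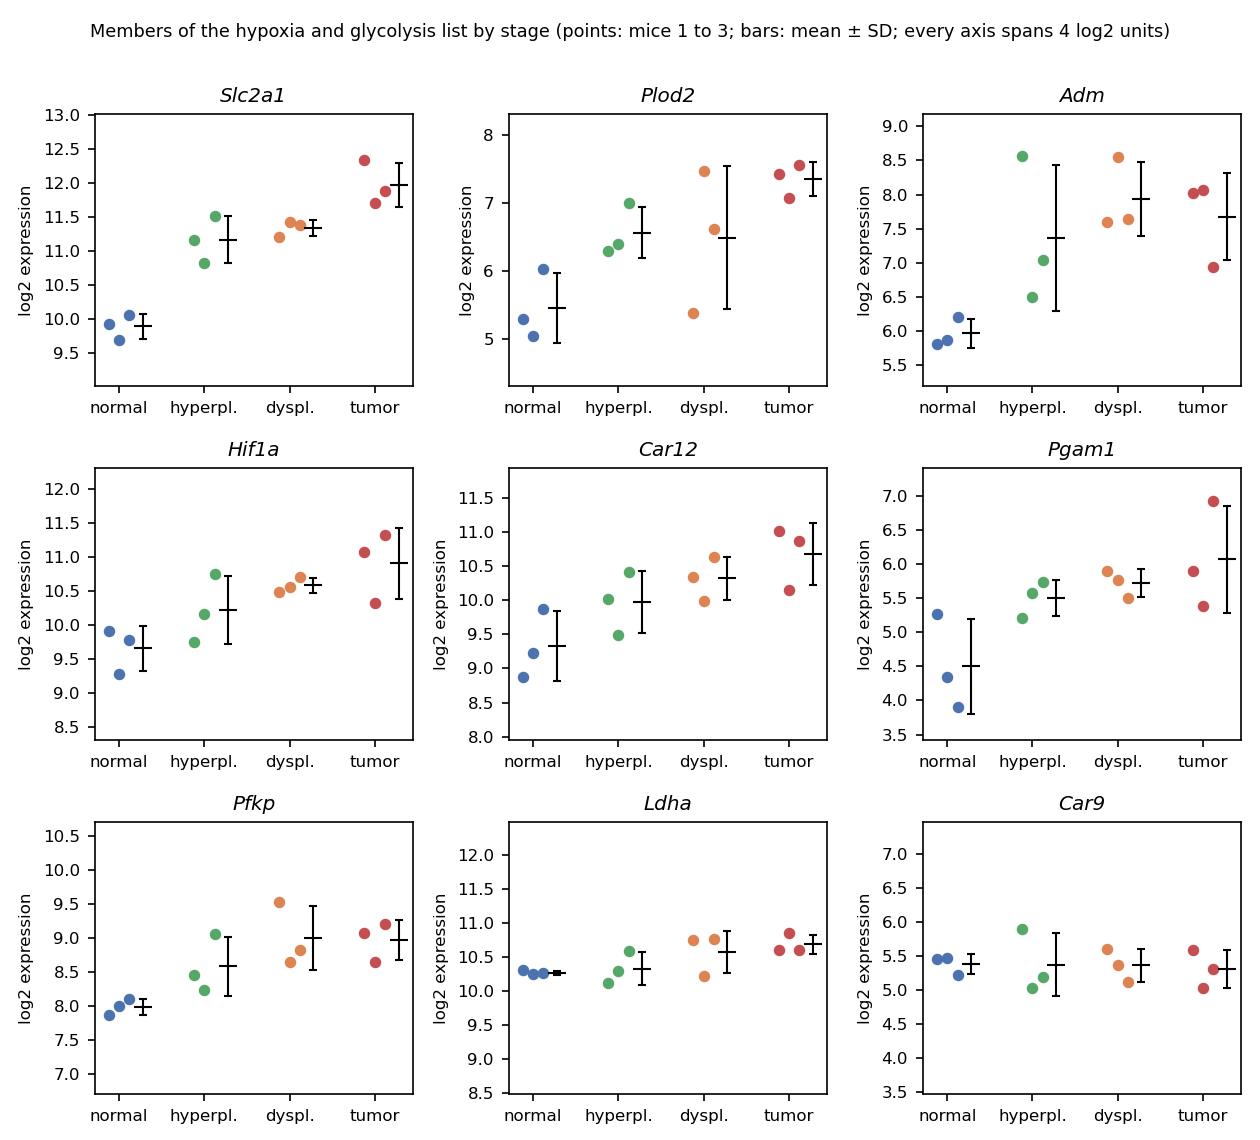
Log2 expression of 9 members in normal mucosa, hyperplasia, dysplasia and tumor; points are mice 1 to 3, bars are the group mean ± SD, and every vertical axis spans 4 log2 units. Slc2a1 separates normal mucosa (9.69 to 10.05) from all lesions (10.82 to 12.33), Adm does so with wider spread, and Car9 stays between 5.03 and 5.90 in all groups.

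The other transporters did not pass the test. Slc16a1, the widely expressed lactate and proton carrier MCT1, measured 7.49, 7.42 and 7.77 in normal mucosa, 7.81, 8.08 and 7.88 in hyperplasia, 7.98, 8.31 and 7.74 in dysplasia and 8.49, 7.92 and 7.97 in tumors. All tumors exceeded all normal samples, by 0.56 on average (SE 0.21, limma adjusted p = 0.208). Slc16a3, the HIF-induced lactate exporter MCT4, measured 7.83, 6.76 and 7.08 in normal mucosa, 6.56, 7.02 and 6.98 in hyperplasia, 7.49, 7.08 and 6.93 in dysplasia and 7.79, 7.02 and 7.46 in tumors. Its groups overlapped, and the difference was 0.20 (SE 0.29, interval -0.44 to 0.83). Slc2a3, the high-affinity glucose transporter of neurons and leukocytes, measured 6.35, 5.96 and 6.18 in normal mucosa, 6.06, 5.96 and 6.21 in hyperplasia, 6.66, 6.0 and 6.12 in dysplasia and 5.91, 5.90 and 5.91 in tumors. The tumor values lay just under all the others, with a difference from normal mucosa of -0.26 (SE 0.20, interval -0.69 to 0.18). Dysplasia mouse 1, which had the highest value, also had the highest mean of 10 leukocyte markers (7.58). Dysplasia mice 2 and 3 had the next highest marker means (6.79 and 6.90), with Slc2a3 at 6.0 and 6.12. Normal mouse 1 had the lowest marker mean (5.84), with Slc2a3 at 6.35. The part of leukocyte RNA in the Slc2a3 values was not tested.

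All 7 secreted, matrix and redox genes had a tumor difference above 0, between 0.51 and 1.90 with a median of 0.67, and 1 of them passed. Plod2, whose product prepares collagen for stable cross-links, measured 5.30, 5.05 and 6.04 in normal mucosa, 6.30, 6.40 and 7.01 in hyperplasia, 5.39, 7.47 and 6.63 in dysplasia and 7.44, 7.08 and 7.57 in tumors. Every tumor and hyperplasia sample lay above every normal sample, while dysplasia mouse 1 was at the normal level. Its normal mean of 5.46 lay within the range of the 30th percentiles of the arrays (5.25 to 5.51), so the size of its differences rests partly on dim normal values. The tumor level was 3.73-fold that of normal mucosa (difference 1.90, SE 0.44, 95% interval 0.95 to 2.85, limma adjusted p = 0.0476). This call lay close to the threshold: it held in 8 of 21 alternative settings, and the adjusted p was 0.401 with RIN as a covariate (difference 1.45), 0.191 with the muscle marker mean, and 0.0566 without the 4 samples with a RIN under 6. It was also lost when any 1 of the 3 normal, 3 hyperplasia or 3 tumor mice, or dysplasia mouse 3, was left out, with adjusted p-values up to 0.146. Fibroblasts make much of the collagen in tissue, and the fibroblast marker Dcn fell by 3.06 in tumors (SE 0.59, limma adjusted p = 0.0243); the mean of 11 fibroblast markers was 7.24 to 7.45 in normal mucosa and 6.76 to 7.10 in tumors, with 4 of the 11 above 0. Their part in the Plod2 result was not tested. Within a preparation day, tumor 1 exceeded normal 2 by 2.38 for Plod2 and tumors 2 and 3 exceeded dysplasia 1 by 1.93.

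Adm encodes adrenomedullin, a secreted vasodilator and a classic HIF target. It measured 5.81, 5.87 and 6.20 in normal mucosa, 8.56, 6.5 and 7.03 in hyperplasia, 7.59, 8.55 and 7.64 in dysplasia and 8.02, 8.07 and 6.94 in tumors. All 9 lesion samples were above the 3 normal samples, but they ranged over 2 log2 units and the 3 lesion groups overlapped. Adm rose in the mean of the 3 lesion groups, to 3.24-fold (difference 1.70, SE 0.39, 95% interval 0.85 to 2.54, limma adjusted p = 0.0468), in a contrast where 2.02% of all genes passed. By single stage the differences were 1.40 in hyperplasia, 1.97 in dysplasia and 1.72 in tumors (SE 0.48 each, limma adjusted p = 0.354, 0.0914 and 0.0874). The call for all lesions was lost with RIN as a covariate (adjusted p = 0.24), with the muscle marker mean (0.0906) and without the low-RIN samples (0.248), and leaving out any 1 of the 3 normal mice gave 0.199, 0.145 and 0.0957. It was also lost without hyperplasia mouse 3 (0.0666), dysplasia mouse 2 or 3 (0.0703 and 0.0664) or tumor mouse 1 or 2 (0.0782 and 0.0788). Within a preparation day, tumor 1 exceeded normal 2 by 2.15, while tumors 2 and 3 differed from dysplasia 1 by -0.08.

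Of the remaining genes of this group, Ero1a, which oxidizes disulfide bonds in the endoplasmic reticulum, measured 9.12, 9.02 and 8.68 in normal mucosa, 9.53, 9.21 and 9.59 in hyperplasia, 10.12, 9.28 and 9.22 in dysplasia and 9.54, 9.93 and 9.37 in tumors. All lesion samples exceeded all normal samples, and the tumor difference was 0.67 (SE 0.26, limma adjusted p = 0.215). P4ha1, a collagen prolyl hydroxylase subunit, measured 7.41, 7.0 and 6.72 in normal mucosa, 7.01, 6.52 and 7.46 in hyperplasia, 7.4, 7.05 and 6.38 in dysplasia and 8.5, 7.19 and 7.49 in tumors. Only tumor mouse 1 was clearly above the rest (difference 0.68, SE 0.37, adjusted p = 0.379). P4ha2, its sister subunit, Plod1, a second lysyl hydroxylase, and Vegfa, the vascular growth factor, had tumor differences of 0.51, 0.54 and 0.60 (SE 0.30, 0.33 and 0.29), and none passed. Adm and Vegfa act on endothelial cells, whose markers were measured too: 10 of 12 had a tumor difference above 0, Cdh5 rose by 1.33 (SE 0.27, limma adjusted p = 0.0294), and the list mean was 6.02 to 6.24 in normal mucosa and 6.64 to 6.92 in tumors. Its part in the Adm and Plod2 results was not tested.

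The 2 carbonic anhydrases, membrane enzymes that turn carbon dioxide and water into bicarbonate and acid outside the cell, had unlike tumor differences of 1.35 and -0.07. Car12 measured 8.87, 9.23 and 9.88 in normal mucosa, 10.01, 9.50 and 10.42 in hyperplasia, 10.34, 9.99 and 10.63 in dysplasia and 11.01, 10.15 and 10.88 in tumors. Dysplasia and tumor samples were all above the normal samples, with a tumor difference of 1.35 (2.56-fold, SE 0.33, 95% interval 0.65 to 2.06) that missed the threshold (limma adjusted p = 0.0561). Car9, among the most oxygen-responsive genes in many human tumors, measured 5.46, 5.46 and 5.21 in normal mucosa, 5.90, 5.03 and 5.19 in hyperplasia, 5.60, 5.37 and 5.12 in dysplasia and 5.59, 5.03 and 5.30 in tumors. Its groups overlapped, with a tumor difference of -0.07 (SE 0.25, interval -0.60 to 0.46), and its mean placed it among the 30% dimmest genes of the array. Whether the 2 differences themselves differ was not tested.

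The 7 genes of mitophagy, stress and chromatin showed no common direction, and none passed. Of the 7, 3 had a tumor difference above 0 and 4 below, with a median of -0.30. Ddit4, an inhibitor of mTOR signalling induced by hypoxia and other stress, measured 7.03, 7.85 and 6.69 in normal mucosa, 6.71, 7.07 and 8.00 in hyperplasia, 6.62, 6.6 and 6.32 in dysplasia and 8.71, 6.94 and 7.82 in tumors. All tumors lay above all dysplasia samples (difference 1.31, SE 0.44, unadjusted p = 0.0117, limma adjusted p = 0.766), while tumor and normal samples overlapped (0.63, SE 0.44). Ndrg1, a hypoxia and differentiation gene, measured 8.12, 8.21 and 7.68 in normal mucosa, 7.38, 7.46 and 8.91 in hyperplasia, 8.52, 8.55 and 8.35 in dysplasia and 9.36, 7.73 and 8.31 in tumors. Its spread within tumors was wider than the difference of 0.46 (SE 0.43, limma adjusted p = 0.63).

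Bnip3l, a receptor for mitophagy, measured 9.92, 9.75 and 9.32 in normal mucosa, 9.46, 9.11 and 9.84 in hyperplasia, 10.10, 8.56 and 9.04 in dysplasia and 9.31, 9.07 and 9.23 in tumors. The tumors were just under the normal samples, by 0.46 on average, a difference of -0.46 (SE 0.34, limma adjusted p = 0.526). Kdm3a, a histone demethylase and HIF target, measured 7.64, 8.04 and 7.46 in normal mucosa, 7.51, 7.18 and 7.50 in hyperplasia, 7.87, 7.43 and 7.57 in dysplasia and 7.44, 7.09 and 7.31 in tumors. It too lay just under the normal samples in tumors (-0.43, SE 0.21, adjusted p = 0.314). Bnip3, the related mitophagy receptor, Ankrd37, a HIF target, and Mxi1, a Myc antagonist, had tumor differences of 0.27, -0.39 and -0.30 (SE 0.24, 0.21 and 0.27).

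**Figure D3:**
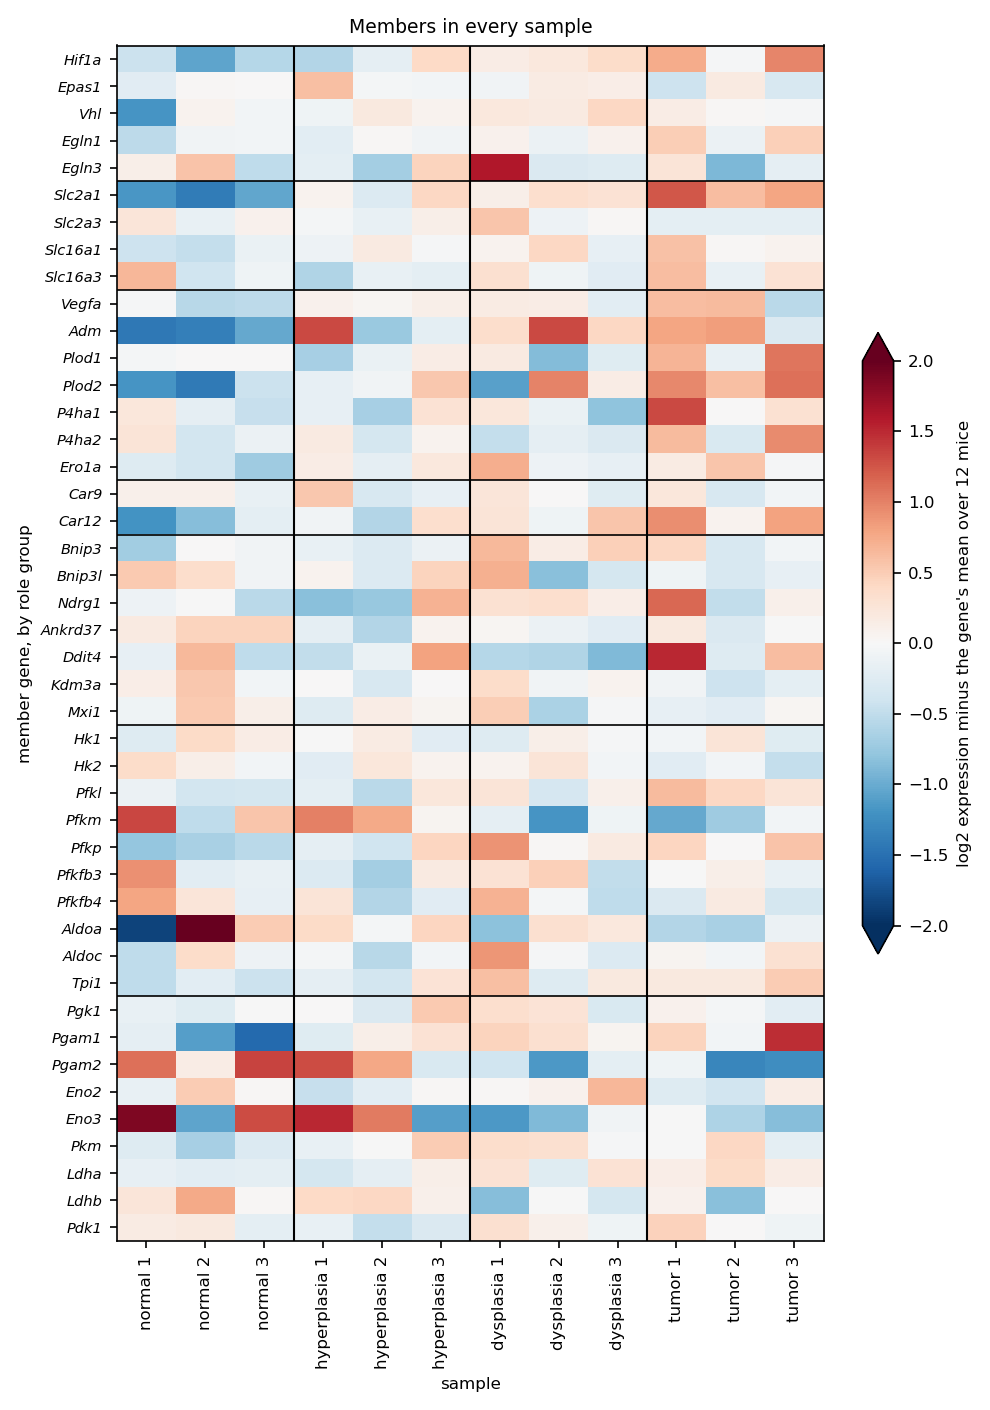
Heat map of the 44 measured members (rows, by role group) in the 12 mice (columns, by stage); colour is log2 expression minus the gene's own mean over the 12 mice, from -2 (blue) to 2 (red). Slc2a1 and Adm are blue in all 3 normal samples, Pgam2 and Eno3 are red in 2 normal and 2 hyperplasia samples, and Aldoa differs most among the normal mice.

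In glycolysis the enzymes of a step often come as several isozymes, and some isozymes of 1 step had differences of opposite sign. Phosphofructokinase, the committing step, has a platelet form Pfkp, a liver form Pfkl and a muscle form Pfkm. Pfkp measured 7.87, 8.00 and 8.10 in normal mucosa, 8.45, 8.24 and 9.07 in hyperplasia, 9.54, 8.65 and 8.83 in dysplasia and 9.07, 8.64 and 9.2 in tumors. All lesion samples lay above all normal samples, and the tumor difference was 0.98 (SE 0.27, 95% interval 0.39 to 1.58, limma adjusted p = 0.0889). Pfkl measured 7.83, 7.57 and 7.59 in normal mucosa, 7.74, 7.41 and 8.17 in hyperplasia, 8.2, 7.6 and 8.05 in dysplasia and 8.57, 8.36 and 8.2 in tumors. Tumors were above normal mucosa without overlap (0.71, SE 0.23, adjusted p = 0.139). Pfkm measured 7.23, 5.39 and 6.44 in normal mucosa, 6.89, 6.65 and 5.94 in hyperplasia, 5.71, 4.71 and 5.81 in dysplasia and 4.87, 5.18 and 5.84 in tumors. Its tumor difference was -1.05 (SE 0.46, adjusted p = 0.265), with normal mouse 2 inside the tumor range.

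The other enzymes of the first steps gave 1 value of note and no call. Aldoa, the main aldolase, measured 3.61, 7.65 and 5.97 in normal mucosa, 5.85, 5.43 and 5.89 in hyperplasia, 4.65, 5.78 and 5.67 in dysplasia and 4.88, 4.81 and 5.34 in tumors. The 3 normal mice spanned the whole range of the 12 samples (SD 2.03), so its difference of -0.74 has an SE of 0.73 (limma adjusted p = 0.654). Without normal mouse 2 it was 0.22, and without the 4 samples with a RIN under 6, which leaves mouse 2 as the single normal sample, it was -2.64 with an adjusted p of 0.00667. Aldoa, Pgam1, Pgk1 and other glycolytic genes have near-identical copies in the mouse genome, and whether their probes also detect these was not checked. Tpi1, which interconverts the 2 triose phosphates, was 0.68 higher in tumors (SE 0.24, limma adjusted p = 0.173), without overlap. The hexokinases Hk1 and Hk2, which trap glucose as glucose phosphate, were at -0.11 and -0.40 (SE 0.22 and 0.19), the latter below normal mucosa without overlap. Aldoc, the brain aldolase, was at 0.18, and Pfkfb3 and Pfkfb4, which make the activator of phosphofructokinase, were at -0.20 and -0.44 (SE 0.31, 0.34 and 0.34).

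Phosphoglycerate mutase showed the widest split between isozymes. Pgam1, the form of most tissues, measured 5.27, 4.35 and 3.90 in normal mucosa, 5.21, 5.57 and 5.74 in hyperplasia, 5.90, 5.77 and 5.5 in dysplasia and 5.90, 5.39 and 6.93 in tumors. Dysplasia and tumor samples were above all normal samples, with a tumor difference of 1.57 (SE 0.39, 95% interval 0.72 to 2.42, limma adjusted p = 0.0631). Its normal mean of 4.5 lay below the 30th percentile of every array (5.25 to 5.51), so the size of this difference rests on dim normal values. Pgam2, the muscle form, measured 7.72, 6.76 and 7.95 in normal mucosa, 7.91, 7.38 and 6.31 in hyperplasia, 6.20, 5.47 and 6.41 in dysplasia and 6.53, 5.30 and 5.37 in tumors. Dysplasia and tumor samples were below all normal samples, by 1.75 on average in tumors, a difference of -1.75 (SE 0.46, interval -2.75 to -0.74, limma adjusted p = 0.0777). Eno3, the muscle enolase, measured 9.80, 6.88 and 9.24 in normal mucosa, 9.44, 8.97 and 6.84 in hyperplasia, 6.79, 7.06 and 7.86 in dysplasia and 7.93, 7.33 and 7.09 in tumors. It was high in the same 4 samples as the muscle markers, normal 1 and 3 and hyperplasia 1 and 2, and its tumor difference was -1.19 (SE 0.74, adjusted p = 0.448).

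The 3 muscle-type enzymes were set beside the muscle markers directly. The mean of the 24 markers was 8.77, 5.99 and 7.83 in normal mucosa, 8.46, 7.81 and 6.26 in hyperplasia, 6.03, 5.83 and 6.55 in dysplasia and 6.72, 5.82 and 5.68 in tumors. The median marker difference between tumor and normal mucosa was -1.58, with 17 of the 24 under -1, although none passed the test. With this mean as a covariate, the tumor difference of Pgam2 was -0.88, that of Pfkm was -0.35 and that of Eno3 was 0.43 (limma adjusted p = 0.318, 0.822 and 0.591). That of Pgam1 was 1.58 and did not pass either (limma adjusted p = 0.207). Acta1, the main skeletal muscle actin, was at 12.02 in normal mouse 1 and 6.87 in tumor mouse 3, so muscle RNA was present in samples cut as epithelium.

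**Figure D4:**
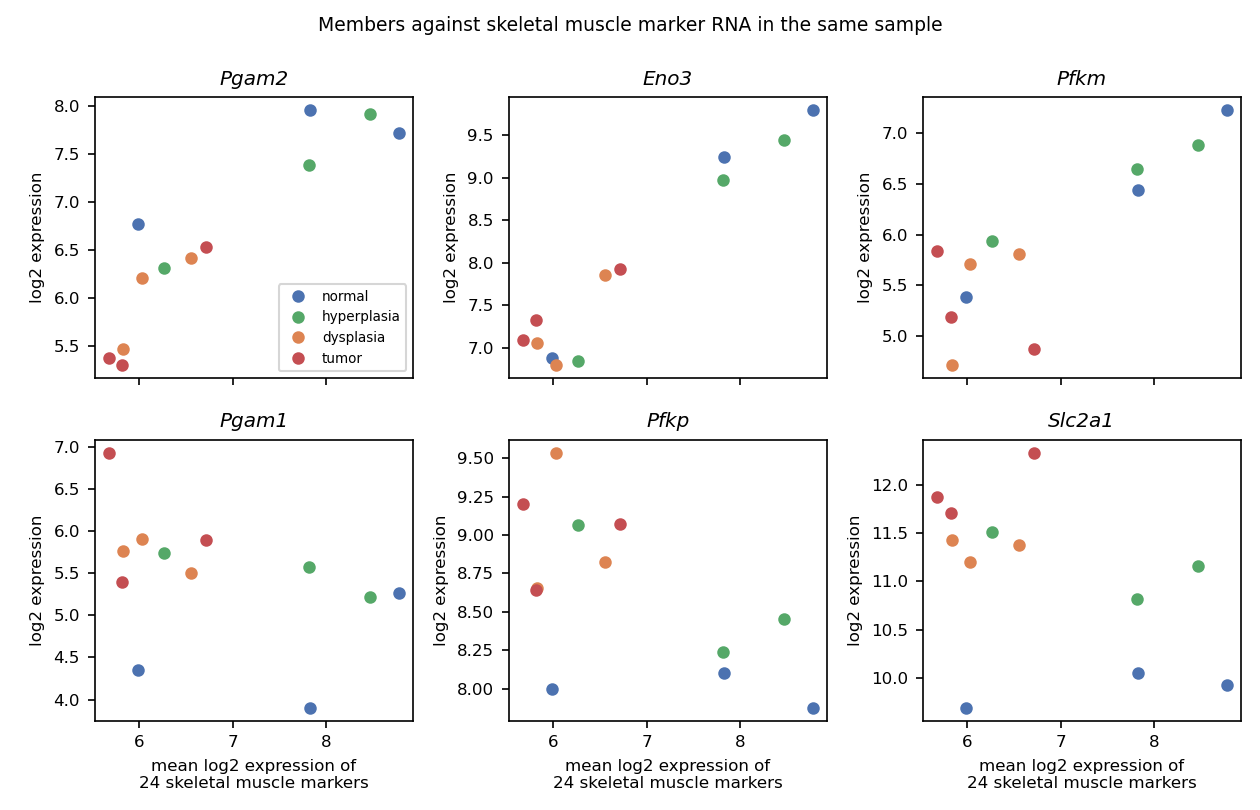
Log2 expression of 6 members (vertical axes) against the mean log2 expression of 24 skeletal muscle markers in the same sample (horizontal axes), 1 point for each of the 12 mice, coloured by stage. The muscle-type enzymes Pgam2, Eno3 and Pfkm are highest in the 4 samples with a marker mean of 7.81 or more, and Slc2a1 is lowest in the 3 normal samples at low and high marker means alike.

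The end of the pathway differed little. Pkm, pyruvate kinase of most dividing tissues, was 0.47 higher in tumors (SE 0.23, limma adjusted p = 0.331), and its 9 lesion values, 10.84 to 11.55, were all above its 3 normal values, 10.37 to 10.78. Ldha, the lactate dehydrogenase subunit that favours lactate, was 0.41 higher (SE 0.20, limma adjusted p = 0.314), with tumors at 10.60, 10.85 and 10.61 and normal mucosa at 10.30, 10.25 and 10.26. Neither passed the test in any contrast. Ldhb, the heart-type subunit, measured 6.75, 7.27 and 6.53 in normal mucosa, 6.91, 6.92 and 6.62 in hyperplasia, 5.67, 6.5 and 6.16 in dysplasia and 6.59, 5.68 and 6.52 in tumors. It was lower in dysplasia than in every normal sample (-0.74, SE 0.29, limma adjusted p = 0.322) and overlapped them in tumors (-0.59, SE 0.29). Pgk1, which makes the first ATP of glycolysis, Pdk1, which blocks pyruvate from entering mitochondria, and Eno2, the neuronal enolase, were at 0.08, 0.07 and -0.29 (SE 0.24, 0.20 and 0.25).

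Across the stages, differences over 1 in size were found between normal mucosa and hyperplasia and also between lesion stages. From hyperplasia to dysplasia 3 members fell by more than 1, the muscle-type enzymes Pgam2, Eno3 and Pfkm, as did 223 of all 24477 genes. Of the 24 skeletal muscle markers, 16 also fell by more than 1 at this step, with a median difference of -1.43. The part of muscle RNA in these 3 falls was not tested. From dysplasia to tumor 1 member, Ddit4, rose by more than 1 (1.31), as did 172 of all genes. In hyperplasia no member passed limma's test, in which 0.0654% of all genes passed, although 6 had an unadjusted p under 0.05 (9.76% of all genes). Slc2a1, Adm, Plod2 and Pgam1 were over 1 there (1.27, 1.40, 1.11 and 1.0), where 1.12% of all genes were, and 8 members were higher without overlap, compared with 7.08% of all genes. In dysplasia Slc2a1 was the single call, 5 members were over 1 (1.84% of all genes), and 11 were higher without overlap (7.28% of all genes). Of the 9 lesion samples, none overlapped the 3 normal samples for Slc2a1, Adm, Ero1a, Pfkp and Pkm, as was the case for 1.97% of all genes.

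Between lesion stages no member passed limma's test: 4 of 44 had an unadjusted p under 0.05 for dysplasia against hyperplasia, 4 for tumor against dysplasia and 6 for tumor against hyperplasia, and the two-sided equal-variance test that the methods name also called none after adjustment. Few genes of any kind passed there (0%, 0.00409% and 0% of all genes, and 4.54%, 6.34% and 6.2% at an unadjusted p under 0.05). Group means went up at all 3 steps for 10 members (Hif1a, Egln1, Slc2a1, Slc16a1, Ero1a, Car12, Pfkl, Tpi1, Pgam1 and Ldha), 22.7% of the list against 5.96% of all genes. They went down at all 3 steps for 5 (Car9, Bnip3l, Mxi1, Aldoa and Pgam2), 11.4% against 8.44%. Both counts use the sign of each step alone, whatever its size. The steps of Car9 were -0.0056, -0.011 and -0.054 (SE 0.25 each). The mean of Aldoa was 5.75 in normal mucosa and 5.72 in hyperplasia, and Ero1a rose by 0.08 from dysplasia to tumor (SE 0.26). The contrasts against normal mucosa share the same 3 normal mice, so their values for a gene are not independent of each other.

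A further 64 genes of the pathway, of 71 listed, were measured to set the members in context: other HIF regulators and targets, other glycolysis and glucose transport genes, and the genes of pyruvate entry and gluconeogenesis. None of them passed limma's test in any contrast. In tumors 32 of the 64 had a difference above 0, and the median was 0.01. An unadjusted limma p under 0.05 was found for 8 of the 64, and for 4147 of all 24477 genes. Arnt, the constant partner of the HIF alpha subunits, measured 7.49, 7.95 and 8.04 in normal mucosa, 7.59, 7.59 and 7.26 in hyperplasia, 7.37, 7.03 and 7.76 in dysplasia and 7.93, 7.47 and 7.68 in tumors. It overlapped between tumor and normal mucosa (-0.14, SE 0.23, limma adjusted p = 0.816).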

How the data were processed

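Total RNA of 12 microdissected tongue samples had been amplified, labelled and hybridized to 1 array each. The deposited log2 values were made by the authors with quantile normalization and robust multi-array averaging (RMA) per gene-level probe set; software versions and genome build are not given in the sources used here. Arrays have no read depth, so 3 arrays per group set the precision; array medians were 6.16 to 6.35. Probe sets were named from the platform annotation, and of 24479, 23281 carried 1 gene symbol and 1198 none; for 2 symbols with more than 1 probe set the brighter was kept, giving 24477 genes. Groups came from the sample labels, and nothing was left out. One linear model with 4 group means was fitted over the 12 arrays (limma 3.58.1, R 4.3.3; prior degrees of freedom 4.22, residual 8), adjusted by Benjamini-Hochberg over all genes at 0.05. SE and 95% intervals come from this fit, which was tested on simulated data and passed 6 of 6 checks; SD is over mice. With 3 against 3 samples, an exact permutation test of a single gene cannot go below p = 0.1. Each sample is a different mouse. RIN and preparation day came from the study's sample table.

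The members, the role groups and the other lists were chosen with earlier results of these data known. All members could be named; values per sample are given for members that passed and for up to 4 members of each role group with the largest tumor difference. Alternatives were a second quantile normalization, no genes among the 30% dimmest, an intensity trend, RIN, the muscle marker mean, preparation day as a random block, a replicate block, only the compared groups, leaving out the 4 samples with a RIN under 6 or 1 mouse, and the two-sided equal-variance test of the methods. Promoters were from RefSeq (GRCm38.p6), searched on both strands with Python 3.11.15; figures used matplotlib 3.10.9. Adipocyte markers were also measured, and none passed.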

Additional observations from a re-analysis of the deposited data

How the results depend on the processing

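Members that passed in tumor against normal mucosa numbered 2, and 5 without the 30% dimmest genes (Car12, Hif1a and Pgam1 added; 43 members tested; Pgam1 stayed in that test through its lesion values, since its normal mean is below the 30th percentile of every array), 4 with an intensity trend (Hif1a and Car12 added), 1 with RIN or with the muscle marker mean as a covariate (Slc2a1), 0 with the methods' test after Benjamini-Hochberg and 11 with that test unadjusted. Over all genes the tumor counts moved too, from 182 higher and 301 lower to 313 and 381 without the dimmest genes. They were 248 and 351 with the trend, 5 and 12 with RIN, and 18 and 65 with the muscle marker mean. The methods' test gave 0 and 1 after adjustment, and 1550 and 1880 unadjusted. In hyperplasia against normal mucosa the member count of 0 became 1 with the trend (Slc2a1, limma adjusted p = 0.0492) and 4 unadjusted. Over all genes those settings gave 9 higher and 15 lower, and 930 and 1151. In dysplasia against normal mucosa the count of 1 became 2 with only the compared groups (Adm added), 0 with the muscle marker mean, 0 with the methods' test after adjustment and 9 unadjusted. There the all-gene counts went from 64 higher and 123 lower to 30 and 81 with only the compared groups. The muscle marker mean gave 8 and 23, and the methods' test 0 and 0 after adjustment and 1000 and 1158 unadjusted. Among members the unadjusted test gave 1 for dysplasia against hyperplasia, 1 for tumor against dysplasia and 4 for tumor against hyperplasia. Over all genes these were 569 higher and 404 lower, 527 and 866, and 686 and 939. For all lesions the count of 2 became 3 with a second quantile normalization or without the dimmest genes (Pgam1 added), 1 with RIN, 1 with the muscle marker mean, 1 with the methods' test after adjustment and 13 unadjusted; the setting with only the compared groups gives no value of its own there. The all-gene counts for all lesions, 193 higher and 301 lower, became 199 and 289 with a second quantile normalization. They were 264 and 353 without the dimmest genes, 31 and 70 with RIN, and 45 and 132 with the muscle marker mean. The methods' test gave 64 and 114 after adjustment, and 1614 and 2177 unadjusted. Leaving out 1 mouse gave 1 to 3 members for tumors and 0 to 1 for hyperplasia (1 without hyperplasia mouse 2). It gave 0 to 2 for dysplasia and 1 to 3 for all lesions. The RIN limit left 1 normal mouse, which was assumed to vary like the other groups. Without the 4 low-RIN samples Aldoa passed as lower in tumors, in dysplasia and for all lesions (-2.64, -1.93 and -2.12; adjusted p = 0.00667, 0.0377 and 0.0121), while Plod2 in tumors, Slc2a1 in dysplasia and Adm for all lesions no longer passed. The median member difference in tumors was 0.0416 to 0.3494 with 1 mouse left out and 0.18 with the muscle marker mean. The causes were not tested.

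With the replicate number as a block, 4 members passed in tumors (Slc2a1, Plod2, Car12 and Hif1a), and for all lesions Car12 passed (limma adjusted p = 0.0372) and Adm did not (0.0661). Over all genes that setting gave 171 higher and 262 lower in tumors, and 155 and 238 for all lesions. The replicate numbers did not pair the samples: of 18 same-numbered pairs, deviations correlated by -0.113 to 0.112, and 1 was over 0.1.

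Slc2a1, Plod2 and Adm kept their direction in the contrasts where they passed, under every setting run. Tumor differences that changed direction were close to 0 or widely spread. Those of Vhl (-0.0241) and Ddit4 (-0.0285) did so without the 4 low-RIN samples. Car9 did so with a second quantile normalization (0.0481) or the muscle marker mean (0.0592). Eno3 did so with the muscle marker mean (0.43) or without the low-RIN samples (0.57). The hyperplasia difference of Pgam2 also changed direction without the low-RIN samples, to 0.34. Leaving out 1 mouse, tumor differences ran from -0.0316 to 0.50 for Slc16a3, -0.21 to 0.0657 for Car9 and -1.80 to 0.22 for Aldoa, and the hyperplasia difference of Pgam2 from -0.64 to 0.17. Array background was not measured here, so how far it limits dim members is not known.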
